A study of Homo sapiens with 6 samples.

Results

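The constitutive proteasome genes are described here in ACHN cells in which the ribosome-associated co-chaperone gene DNAJC2 had been knocked down. They were taken by name: every gene of the count table named PSM, then a letter from A to G and a number, other than the interferon-inducible PSMB8, PSMB9 and PSMB10. This gave 45 of the 20532 genes in the table, namely 8 alpha subunits (PSMA) and 8 beta subunits (PSMB) of the core, 6 base ATPases (PSMC), 14 non-ATPase regulatory genes (PSMD), 5 activator and inhibitor genes (PSME and PSMF1) and 4 assembly chaperones (PSMG). ACHN is an established human renal carcinoma line, labelled as clear cell renal cell carcinoma. The shDNAJC2 group (3 libraries) carried a lentiviral short hairpin RNA against DNAJC2, and the shCtrl group (3 libraries) carried a negative control hairpin delivered the same way, so both groups are stably transduced cells. Messenger RNA was enriched and sequenced as paired reads, and the stated interest of the study lay in metabolism and ferroptosis. Whether the replicates came from separate transductions, and whether more than 1 hairpin was used, was not given in the sources used here, so p-values measure the spread between these libraries.

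The proteasome degrades proteins tagged with ubiquitin. Its barrel-shaped core is built of outer rings of alpha subunits, which gate the entrance, and inner rings of beta subunits, of which PSMB5, PSMB6 and PSMB7 carry the chymotrypsin-like, caspase-like and trypsin-like active sites. A regulatory particle caps the barrel: its base holds a ring of ATPases that unfold the substrate, and its lid holds the deubiquitinase PSMD14 that removes the ubiquitin chain. When proteasome activity falls, the transcription factor NFE2L1 is released from the endoplasmic reticulum by DDI2 and raises most proteasome genes together through antioxidant response elements. Interferon instead raises the activator genes PSME1 and PSME2 and the alternative catalytic subunits PSMB8, PSMB9 and PSMB10.

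A few promoter stretches are shown because the genes beside them recur in the results. They come from RefSeq on GRCh38.p14, are written 5′ to 3′ on the strand of the gene, and carry in capitals a match to a short motif on either strand. For PSMG1 (chr21:39183452-39183651, minus strand) and PSMD12 (chr17:67366578-67366777, minus strand), the capitals are matches to the antioxidant response element core TGANNNNGC, and the stretch ends 1 base before the RefSeq start.
PSMG1: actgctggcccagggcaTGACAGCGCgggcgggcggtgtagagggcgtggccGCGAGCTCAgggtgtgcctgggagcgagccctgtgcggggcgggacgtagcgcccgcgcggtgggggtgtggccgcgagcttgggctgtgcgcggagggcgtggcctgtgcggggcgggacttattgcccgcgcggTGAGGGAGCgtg
PSMD12: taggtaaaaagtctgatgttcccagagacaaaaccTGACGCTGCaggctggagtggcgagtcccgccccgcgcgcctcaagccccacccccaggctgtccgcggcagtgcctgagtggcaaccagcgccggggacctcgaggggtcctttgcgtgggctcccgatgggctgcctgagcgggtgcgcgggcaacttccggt
For PSME2 (chr14:24146611-24146710, minus strand) and PSME1 (chr14:24136184-24136212, plus strand, around its start), the capitals are matches to the interferon response element core GAAANNGAA, on the other strand in PSME1.
PSME2: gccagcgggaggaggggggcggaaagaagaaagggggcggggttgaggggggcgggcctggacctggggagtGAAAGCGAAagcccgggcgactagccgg
PSME1: cgagcgccctaccgctTTCGCTTTCcctt
For PSMC2 (chr7:103347543-103347642, plus strand), the capitals are a match to the ETS factor core CCGGAAG on the other strand.
PSMC2: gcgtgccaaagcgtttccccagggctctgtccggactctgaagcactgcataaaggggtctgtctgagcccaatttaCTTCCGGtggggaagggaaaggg

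Windows from 250 bases before to 50 bases after the start were found for 39 members (47 windows). The members with no window were PSMA7, PSMB1, PSMB6, PSMB7, PSMD4 and PSMG3. TGANNNNGC occurred in 29 of the 47 member windows (61.7%), against 41.8% of all 35116 windows in the RefSeq table. CCGGAAG occurred in 15 (31.9%, against 10.3%), CCAAT, the core bound by NF-Y, in 19 (40.4%, against 34.6%), and GAAANNGAA in 6 (12.8%, against 8.1%). These shares describe letters in a window and carry no evidence of binding in these cells. Capitals mark only the motif named for each printed stretch. TGANNNNGC occurred in members with either sign of change, with PSME1, PSME2, PSMC3, PSMC4 and PSMD3 among the negative ones. GAAANNGAA also occurred in the window of PSMC2. Any link between a motif and the direction of change was not tested.

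DNAJC2 was lower in all 3 knockdown libraries than in all 3 controls. It stood at 51.2, 50.4 and 38.5 CPM (counts scaled to the library size, TMM-normalized, as all CPM below unless called raw) in shDNAJC2 1, 2 and 3, against 76.7, 69.8 and 86.5 CPM in shCtrl 1, 2 and 3. The fitted log2 fold change was −0.74 (SE 0.15), which leaves 60.1% of the control level with a 95% confidence interval of 47.0 to 76.8%. After adjustment over all 13988 tested genes its p was 0.429 by edgeR and 0.0364 by DESeq2, and the exact permutation p was 0.1 (two-sided), the smallest that 3 against 3 libraries allow. DNAJC2 has a proteasome gene as its neighbour: on chromosome 7 it lies on the minus strand (103312474 to 103344873) head to head with PSMC2 on the plus strand (103344254 to 103369395), with RefSeq starts 2876 bases apart and gene bodies that overlap by 620 bases in GENCODE 29 but share no exon. PSMC2, a base ATPase, was at 155, 152 and 134 CPM in shDNAJC2 1, 2 and 3, against 136, 144 and 138 CPM in shCtrl 1, 2 and 3. Its groups overlapped, and its log2 fold change was 0.08 with an interval of −0.16 to 0.32.

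Library totals ranged from 17491462 to 25760291 counts, with 15900 to 16336 genes detected. One control library, shCtrl 3, stood apart: it lay nearer to the knockdown mean than to the mean of shCtrl 1 and 2 for 10434 of 13988 genes (74.6%), although its DNAJC2 was the highest of all, so every call below, and many of the values, are also given without it. Since shCtrl 3 was singled out from these same values, the fit without it is a description and its adjusted p-values are no independent support. In part the markers went against the label: of 8 renal epithelial genes 4 passed the low-count filter, CDH16 had 0 counts in every library, PAX2 and LHX1 did not pass the filter, and PAX8 was at 2.82 to 4.64 CPM, while the keratin genes KRT8 (30.9 to 41.7 CPM) and KRT18 (66.5 to 89.8 CPM), which make up most of the list's sum, were present. The summed renal list was at 108 to 115 raw CPM in shDNAJC2 and 113 to 128 in shCtrl libraries, against 1035 to 1597 and 1153 to 3557 for 6 fibroblast genes, all of which passed the filter. Much of the fibroblast sum was COL1A1, at 572, 623 and 1066 CPM in shDNAJC2 1, 2 and 3, against 2796, 2785 and 695 CPM in shCtrl 1, 2 and 3. Summed endothelial genes (CDH5 and EMCN at 0) were at 51.6 to 57.3 and 51.2 to 76.5 raw CPM, most of it TEK, and blood genes (CD3E at 0) at 1.03 to 1.36 and 1.04 to 2.06 raw CPM. Their part in the results below was not tested. In bulk RNA a smaller share of some cells and less RNA per cell cannot be told apart.

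No constitutive proteasome gene passed the test, and the fitted differences were small. Of the 45, 43 passed the low-count filter, and the testis-specific PSMA8 and the thymus-specific PSMB11 had 0 counts in all 6 libraries, which allows up to 3 counts, or 0.115 to 0.179 CPM. The 43 log2 fold changes ran from −0.42 (PSME2) to 0.44 (PSMG1) with a median of 0.08, 29 of them positive and 14 negative, while the median over all tested genes was −0.02. Each of the 43 had a 95% interval inside a 2-fold change in either direction, against 74.0% of all tested genes. Of the 9324 genes with a mean CPM between those of the lowest and highest members, 7963 did so. The median size of the change was 0.13 on the log2 scale with a median SE of 0.12, against 0.21 and 0.18 over all genes, and against 0.19 and 0.15 over the 9324 genes whose mean CPM lay between those of the lowest and highest members.

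**Figure D1:**
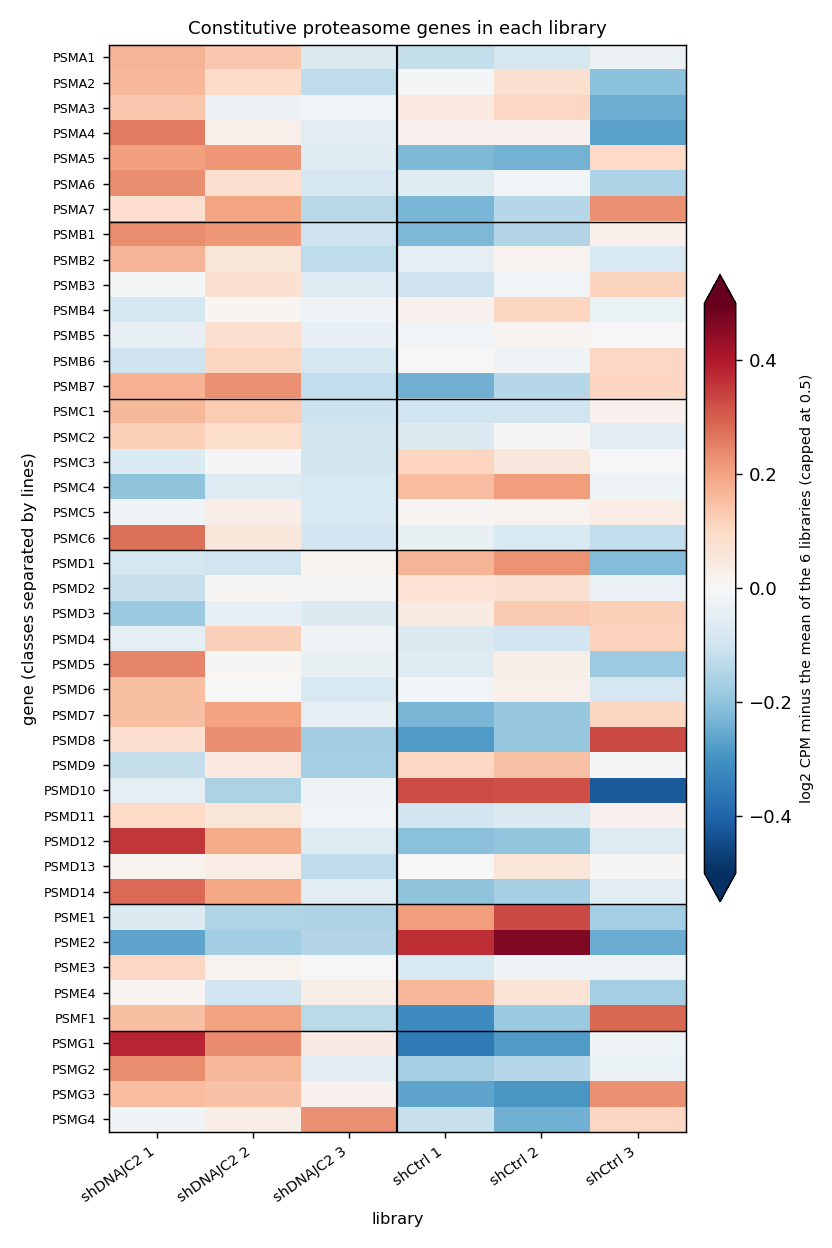
Level of the 43 tested genes (rows, by class) in each library (columns, shDNAJC2 on the left), as log2 CPM minus the mean of the gene over the 6 libraries. In PSMA5, PSMA7, PSMG1, PSMG2 and PSMG3 the reds of shDNAJC2 1 and 2 contrast with the blues of shCtrl 1 and 2, and PSME1, PSME2 and PSMD10 show the opposite colours.

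No member passed edgeR's quasi-likelihood test after adjustment (smallest adjusted p 0.429), as with all 13988 genes, of which 0% were called. PSMG1, PSMD12 and PSMD14 were the 3 members below 0.05 before adjustment in that edgeR fit, all higher in shDNAJC2. The background at that threshold was 4.00% of genes higher and 7.33% lower. DESeq2 called 0 of the 43 members (smallest adjusted p 0.205) and 0.250% of all genes. The libraries of both groups did not overlap for 3 members that were higher (PSMD12, PSME3, PSMG1) and 3 that were lower (PSMC3, PSMC4, PSMD3), against 7.33% and 8.43% of all genes. Those shares are close to the background.

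Without shCtrl 3, 5 members rose and 4 fell at an adjusted p under 0.05, where 17.8% of 14201 genes were called higher and 17.0% lower. These calls follow the removal of the control nearest to the knockdown, a choice made from the same values. The members that rose were PSMA5, PSMD7, PSMD12, PSMG1 and PSMG3, and those that fell were PSMC4, PSMD10, PSME1 and PSME2. The median log2 fold change of the members was 0.08 in that fit, with 28 of 43 positive. It was 0.05 without shDNAJC2 1, 0.14 without shDNAJC2 3 and 0.03 with the GC trend of each library removed. The members for which shCtrl 3 sided with the knockdown in this sense numbered 25 of 43 (58.1%), against 74.6% of all genes.

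**Figure D2:**
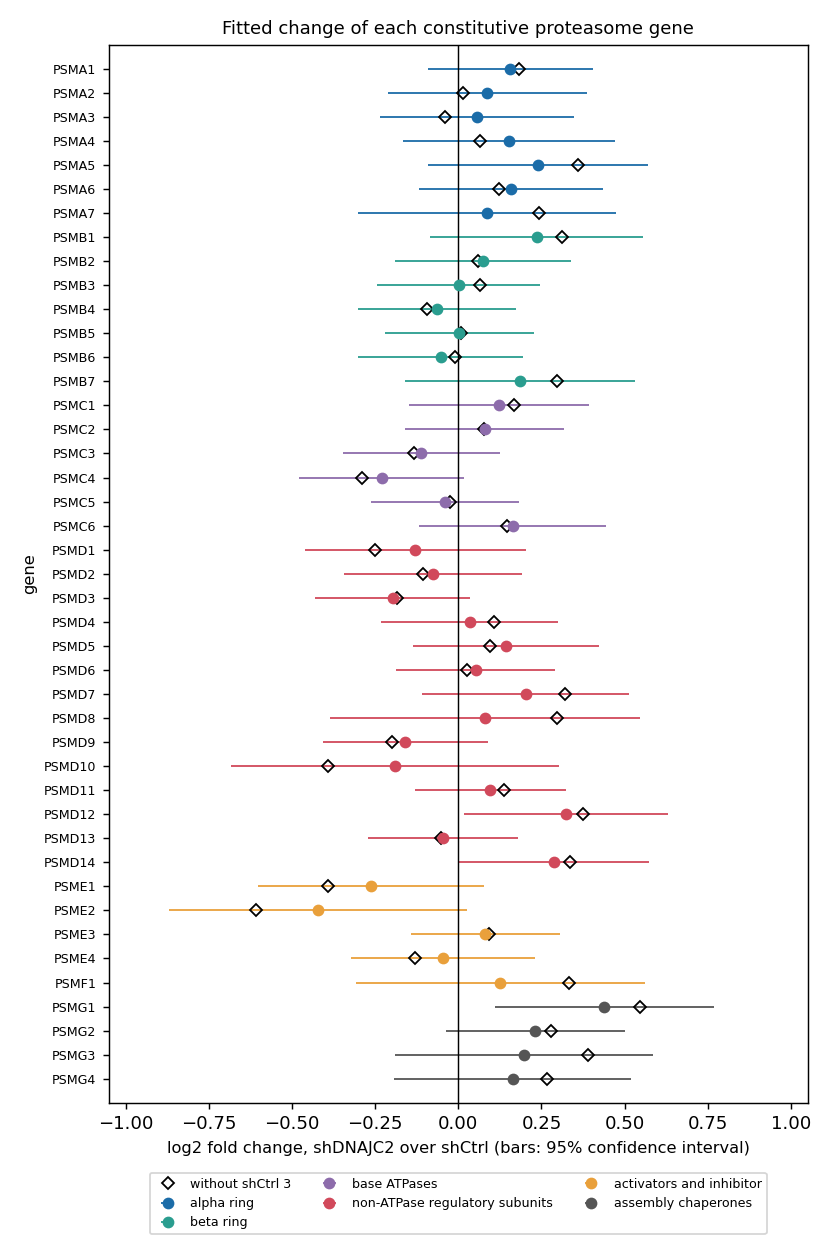
Fitted log2 fold change, shDNAJC2 over shCtrl, of the 43 tested genes (points coloured by class, bars 95% confidence intervals) with the value from the fit without shCtrl 3 as open diamonds. The intervals of PSMG1, PSMD12 and PSMD14 alone do not reach 0, and the diamonds of PSME2 (−0.61) and PSMG1 (0.55) lie farthest out.

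The summed level of the 43 genes was 6852, 6914 and 6264 CPM in shDNAJC2 1, 2 and 3, against 6407, 6587 and 6584 CPM in shCtrl 1, 2 and 3. The groups overlapped, and the knockdown mean was 102.3% of the control mean, a direction that turned with library totals alone as the scale (98.8%). The core genes summed to 2609, 2614 and 2277 CPM in shDNAJC2 and 2262, 2350 and 2414 CPM in shCtrl libraries (106.7%). The PSMC and PSMD genes, most of the regulatory particle together with base chaperones, summed to 3399, 3479 and 3203 CPM in shDNAJC2 libraries. In shCtrl libraries they summed to 3316, 3372 and 3374 CPM, which puts the knockdown mean at 100.2%. In each of these sums shDNAJC2 3 was the lowest of all 6 libraries or, for the core, the next to lowest. Per kilobase of transcript, taking the median length of the annotated principal transcripts, the highest levels were those of PSMA7 (300 CPM per kb in shDNAJC2, 283 in shCtrl) and PSMB4 (235 and 246), and the lowest that of PSME4 (12.8 and 13.2). The transcript expressed in these cells was not known.

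**Figure D3:**
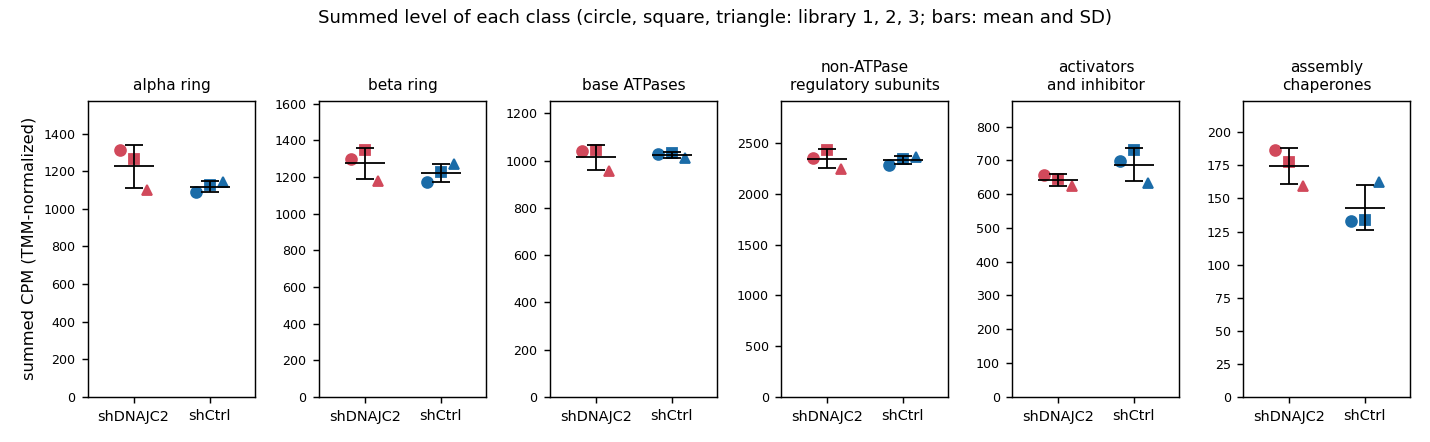
Summed TMM-normalized CPM of each class in each library (circle, square and triangle for library 1, 2 and 3; bars mean and SD), shDNAJC2 left of shCtrl. The assembly chaperones show the widest relative gap, at 122.0% of control, and the base ATPases and the non-ATPase genes sit at 99.0% and 100.7%.

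All 7 tested alpha-ring genes had a positive log2 fold change, with a median of 0.15 (range 0.06 to 0.24), and none passed the test. PSMA5 had the largest. Its levels were 174, 176 and 145 CPM in shDNAJC2 1, 2 and 3, against 130, 129 and 162 CPM in shCtrl 1, 2 and 3. Only shCtrl 3 reached into the knockdown range; the log2 fold change was 0.24 (SE 0.14), and 0.36 without that library (edgeR adjusted p = 0.036). PSMA3 had the smallest, 0.06, with 115, 102 and 104 CPM in shDNAJC2 1, 2 and 3, against 108, 112 and 88.1 CPM in shCtrl 1, 2 and 3. Its groups overlapped, and the sign turned without shCtrl 3 (−0.04). PSMA7, the alpha gene with the highest level, was at 306, 330 and 262 CPM in shDNAJC2 1, 2 and 3, against 246, 261 and 338 CPM in shCtrl 1, 2 and 3. The highest library was shCtrl 3, and the log2 fold change was 0.09, and 0.24 without it (edgeR adjusted p = 0.148). Without shCtrl 3 the median of the ring was 0.12 and 6 of 7 were positive. The median was 0.07 without shDNAJC2 1 and 0.23 without shDNAJC2 3. With the GC trend of each library removed it was 0.07, 5 of 7 were positive and PSMA5 was at 0.07.

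The beta ring showed no common direction: 5 of 7 tested genes were positive, the median was 0.00 and none passed. PSMB5, the chymotrypsin-like subunit and the main target of proteasome inhibitors, was at 175, 191 and 175 CPM in shDNAJC2 1, 2 and 3, against 178, 181 and 180 CPM in shCtrl 1, 2 and 3. The groups overlapped, with a log2 fold change of 0.00 and an interval of −0.22 to 0.23. PSMB6, the caspase-like subunit, was at 128, 148 and 130 CPM in shDNAJC2 1, 2 and 3, against 137, 136 and 148 CPM in shCtrl 1, 2 and 3. The groups overlapped, with a log2 fold change of −0.05 (−0.30 to 0.19). PSMB7, the trypsin-like subunit, was at 218, 226 and 177 CPM in shDNAJC2 1, 2 and 3, against 163, 175 and 208 CPM in shCtrl 1, 2 and 3. Here the third library of each group crossed over, and the log2 fold change was 0.19 (−0.16 to 0.53), and 0.30 without shCtrl 3 (edgeR adjusted p = 0.095). PSMB1, a structural subunit, had the largest change of the ring (0.24), with 233, 230 and 185 CPM in shDNAJC2 1, 2 and 3, against 170, 179 and 202 CPM in shCtrl 1, 2 and 3. PSMB4, also structural, had the lowest (−0.06), with 218, 233 and 228 CPM in shDNAJC2 1, 2 and 3, against 235, 249 and 226 CPM in shCtrl 1, 2 and 3. Both overlapped. PSMB2 and PSMB3 had log2 fold changes of 0.07 and 0.00.

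Among the base ATPases 3 of 6 were positive, with a median of 0.02. PSMC4 and PSMC3 were lower in every knockdown library than in any control. PSMC4 was at 101, 111 and 110 CPM in shDNAJC2 1, 2 and 3, against 129, 134 and 114 CPM in shCtrl 1, 2 and 3, a log2 fold change of −0.23 (SE 0.10), and fell by 0.29 on the log2 scale without shCtrl 3 (edgeR adjusted p = 0.040). PSMC3 was at 257, 269 and 253 CPM in shDNAJC2 1, 2 and 3, against 290, 281 and 271 CPM in shCtrl 1, 2 and 3, a log2 fold change of −0.11 that passed in neither fit. The margins between groups were narrow in both, and with upper-quartile scaling or library totals alone neither separated. PSMC6 had the largest positive value (0.16), with 122, 105 and 94.3 CPM in shDNAJC2 1, 2 and 3, against 98.4, 95.7 and 92.7 CPM in shCtrl 1, 2 and 3, which overlap. PSMC1 (0.12) and PSMC5 (−0.04) overlapped as well. PSMC1 has 13 named pseudogenes, and whether reads from such copies were counted as its own was not given.

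The 14 non-ATPase genes, which make up the lid, the scaffold of the base, ubiquitin receptors and base chaperones, had 8 positive and 6 negative values, a median of 0.04 and none past the test. PSMD12, a lid subunit, was at 114, 102 and 85.5 CPM in shDNAJC2 1, 2 and 3, against 77.3, 78.0 and 85.5 CPM in shCtrl 1, 2 and 3. The groups did not overlap, but shDNAJC2 3 and shCtrl 3 were equal to the digits given, and with median-ratio scaling they no longer separated. The log2 fold change was 0.32 (SE 0.13), and 0.37 without shCtrl 3 (edgeR adjusted p = 0.049). PSMD14, the deubiquitinase, was at 164, 154 and 129 CPM in shDNAJC2 1, 2 and 3, against 117, 120 and 130 CPM in shCtrl 1, 2 and 3. It too met at the third libraries, with a log2 fold change of 0.29 (0.00 to 0.57), and did not pass without shCtrl 3 (0.33, edgeR adjusted p = 0.054).

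PSMD3, another lid subunit, went the other way: 169, 187 and 184 CPM in shDNAJC2 1, 2 and 3, against 199, 211 and 209 CPM in shCtrl 1, 2 and 3. The groups separated under all 4 scalings tried, with a log2 fold change of −0.20 (SE 0.10), and it passed in neither fit. PSMD10 (gankyrin), a base chaperone, showed the widest control spread of the class on the log2 scale, with 37.9, 35.1 and 38.6 CPM in shDNAJC2 1, 2 and 3, against 49.1, 49.0 and 29.2 CPM in shCtrl 1, 2 and 3. Against shCtrl 1 and 2 it fell by 0.39 on the log2 scale (edgeR adjusted p = 0.017), and over all 6 libraries the value was −0.19 with overlap. PSMD7, the lid partner of PSMD14, was at 158, 164 and 139 CPM in shDNAJC2 1, 2 and 3, against 122, 125 and 154 CPM in shCtrl 1, 2 and 3, and rose by 0.32 on the log2 scale without shCtrl 3 (edgeR adjusted p = 0.044). PSMD8, a lid subunit, was at 234, 260 and 196 CPM in shDNAJC2 1, 2 and 3, against 181, 194 and 277 CPM in shCtrl 1, 2 and 3, with shCtrl 3 the highest of all. Its log2 fold change was 0.08, and 0.30 without that library (edgeR adjusted p = 0.105). The scaffold subunits PSMD1 and PSMD2 had log2 fold changes of −0.13 and −0.08, the ubiquitin receptor PSMD4 of 0.03, and the base chaperones PSMD5 and PSMD9 of 0.14 and −0.16. The remaining lid genes PSMD6, PSMD11 and PSMD13 lay between −0.05 and 0.10. The groups overlapped for each of these 8.

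The activators held the lowest values of the set. PSME2, a subunit of the interferon-inducible activator, was at 113, 121 and 123 CPM in shDNAJC2 1, 2 and 3, against 176, 188 and 115 CPM in shCtrl 1, 2 and 3. Its partner PSME1 was at 118, 111 and 111 CPM in shDNAJC2 1, 2 and 3, against 143, 155 and 110 CPM in shCtrl 1, 2 and 3. In both genes shCtrl 3 lay among or below the knockdown libraries, and the other controls lay above them. The log2 fold changes were −0.42 (SE 0.19) for PSME2 and −0.26 (SE 0.14) for PSME1, and neither passed. Without shCtrl 3, PSME2 fell by 0.61 on the log2 scale (edgeR adjusted p = 0.0020) and PSME1 by 0.39 (edgeR adjusted p = 0.013). Both genes share exon sequence with a gene on the other strand, EMC9 for PSME1 and RNF31 for PSME2, and whether reads were counted by strand was not given.

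PSME3, the subunit of the nuclear activator, was at 213, 201 and 198 CPM in shDNAJC2 1, 2 and 3, against 188, 195 and 194 CPM in shCtrl 1, 2 and 3. The groups separated by a narrow margin, with a log2 fold change of 0.08 that passed in neither fit, and overlapped with upper-quartile scaling or library totals alone. PSMF1, which encodes an inhibitor of the core, was at 121, 125 and 99.2 CPM in shDNAJC2 1, 2 and 3, against 87.6, 95.9 and 133 CPM in shCtrl 1, 2 and 3. The highest library was again shCtrl 3, and the log2 fold change was 0.13 (−0.31 to 0.56), and 0.33 without it (edgeR adjusted p = 0.062). PSME4, a nuclear activator that acts without ATP, was at 92.4, 85.8 and 93.6 CPM in shDNAJC2 1, 2 and 3, against 103, 96.2 and 81.5 CPM in shCtrl 1, 2 and 3. As in PSME2, 2 controls lay above the knockdown libraries; shCtrl 3 was the lowest library, and the log2 fold change was −0.05 and, without shCtrl 3, −0.13 (edgeR adjusted p = 0.300).

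The 3 immunoproteasome subunits, which were left out of the set, also differed most between the knockdown libraries and shCtrl 1 and 2. PSMB8 was at 40.8, 42.1 and 44.8 CPM in shDNAJC2 1, 2 and 3, against 82.0, 88.8 and 39.8 CPM in shCtrl 1, 2 and 3, a log2 fold change of −0.72. PSMB9 was at 14.2, 12.9 and 17.0 CPM in shDNAJC2 1, 2 and 3, against 39.2, 41.7 and 13.2 CPM in shCtrl 1, 2 and 3, a log2 fold change of −1.09, and −1.45 without shCtrl 3. In PSMB8 and PSMB9, shCtrl 3 lay below or among the knockdown libraries. PSMB10 was at 21.5, 25.4 and 23.0 CPM in shDNAJC2 1, 2 and 3, against 32.1, 32.9 and 27.4 CPM in shCtrl 1, 2 and 3 (−0.41), and of the 3 it alone separated the groups. None passed over 6 libraries by edgeR or DESeq2. By edgeR 3 of 3 were lower at an unadjusted p under 0.05, as were 7.33% of all genes. Without shCtrl 3 all 3 were called lower, as were 17.0% of all genes. Set against the constitutive subunit each replaces, the mean log2 ratio of levels was −2.08 in shDNAJC2 and −1.44 in shCtrl libraries for PSMB8 over PSMB5, −3.21 and −2.33 for PSMB9 over PSMB6, and −3.15 and −2.56 for PSMB10 over PSMB7. In shCtrl 3 the first of these ratios was −2.18 and the next −3.49, both below the knockdown mean. Without shCtrl 3 the control means were −1.08, −1.76 and −2.38, in the same order, so the differences of shDNAJC2 minus shCtrl were −1.01, −1.45 and −0.77, instead of −0.64, −0.87 and −0.59.

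**Figure D4:**
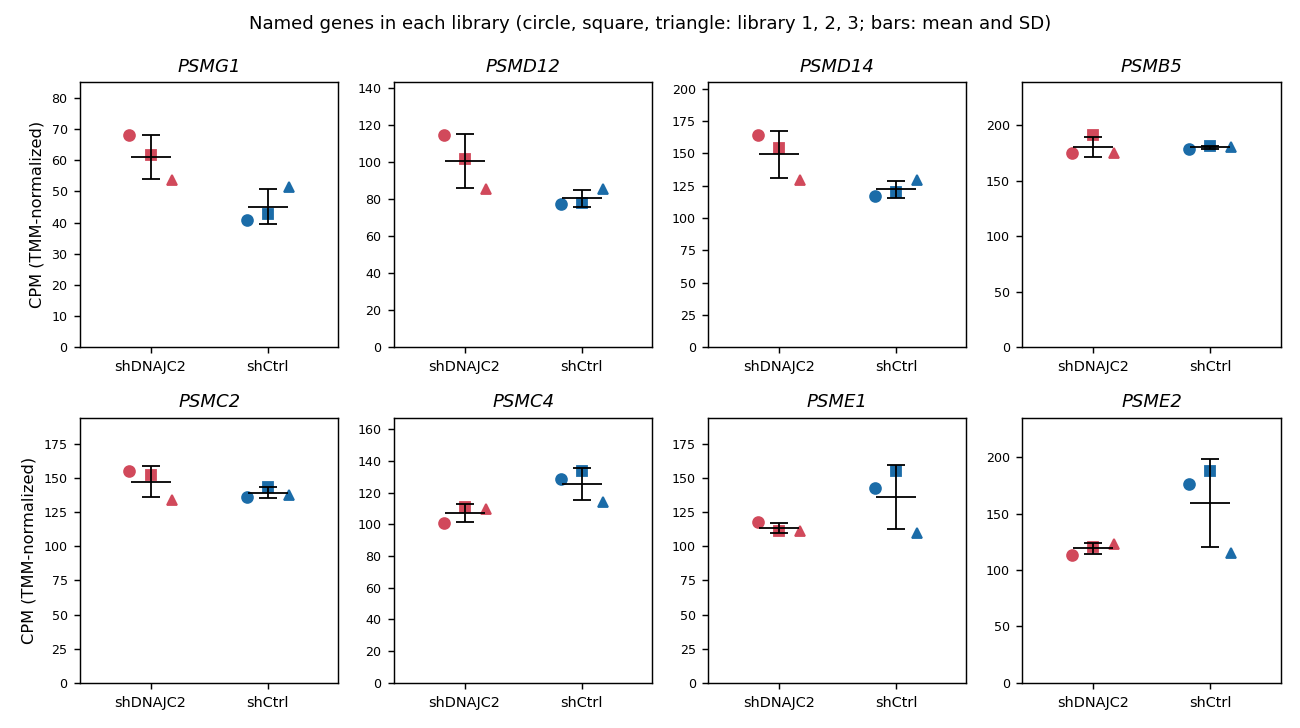
TMM-normalized CPM of 8 members in each library (circle, square and triangle for library 1, 2 and 3; bars mean and SD), shDNAJC2 left of shCtrl. In PSME1 and PSME2 the triangle of shCtrl 3 sits at the knockdown level, whereas in PSMB5 all 6 libraries sit between 175 and 191 CPM.

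The PSMG assembly chaperones, which build the alpha ring and are absent from the finished proteasome, had the highest class median. It was 0.21, and 0.33 without shCtrl 3, and all 4 genes were positive. The base chaperones among the PSMD genes were mixed, at 0.14 for PSMD5, −0.16 for PSMD9 and −0.19 for PSMD10. PSMG1 was at 67.9, 61.5 and 53.7 CPM in shDNAJC2 1, 2 and 3, against 40.8, 42.8 and 51.3 CPM in shCtrl 1, 2 and 3. The groups did not overlap under any of the 4 scalings, with a log2 fold change of 0.44 (SE 0.14, interval 0.11 to 0.77), the largest of the 43. After adjustment its p was 0.429 by edgeR and 0.205 by DESeq2, and without shCtrl 3 it rose by 0.55 on the log2 scale (edgeR adjusted p = 0.010). PSMG2, which forms a dimer with PSMG1, was at 64.9, 62.0 and 53.2 CPM in shDNAJC2 1, 2 and 3, against 49.2, 50.1 and 54.1 CPM in shCtrl 1, 2 and 3. It met at the third libraries, with a log2 fold change of 0.23 (SE 0.11) and no pass in either fit. PSMG3, the partner of PSMG4, was at 40.9, 40.7 and 37.3 CPM in shDNAJC2 1, 2 and 3, against 30.6, 30.0 and 43.1 CPM in shCtrl 1, 2 and 3. Its highest library was shCtrl 3, and without that library it rose by 0.39 on the log2 scale (edgeR adjusted p = 0.022). PSMG4, the lowest tested member, had 12.9, 13.4 and 15.4 CPM in shDNAJC2 1, 2 and 3, against 12.1, 11.1 and 14.1 CPM in shCtrl 1, 2 and 3, a log2 fold change of 0.16, and 0.27 without shCtrl 3 (edgeR adjusted p = 0.174). The 4 genes summed to 175 ± 13.8 CPM in shDNAJC2 and 143 ± 16.8 CPM in shCtrl libraries (SD, n = 3 each), with shDNAJC2 3 (160 CPM) below shCtrl 3 (163 CPM).

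The direction of the members went with their base composition. Of the 23 members with a transcript GC content under 50%, 20 were positive (median 0.14), and of the 20 at or above 50%, 9 were (median −0.04). Over all genes the medians were 0.09 and −0.14. With the GC trend of each library removed, 16 of the 23 and 11 of the 20 were positive, with medians of 0.06 and 0.02, and no member passed by edgeR (smallest adjusted p 0.610; 2 members at an unadjusted p under 0.05, against 5.48% of all 13811 genes in that fit, of which 0 were called). The assembly chaperones remained positive: PSMG1 was at 0.38, PSMG2 at 0.27 and PSMG3 at 0.36, with a class median of 0.32. PSMD12 was at 0.17, PSMC4 at −0.14, PSMD3 at −0.04 and PSME2 at −0.29 in that fit.

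**Figure D5:**
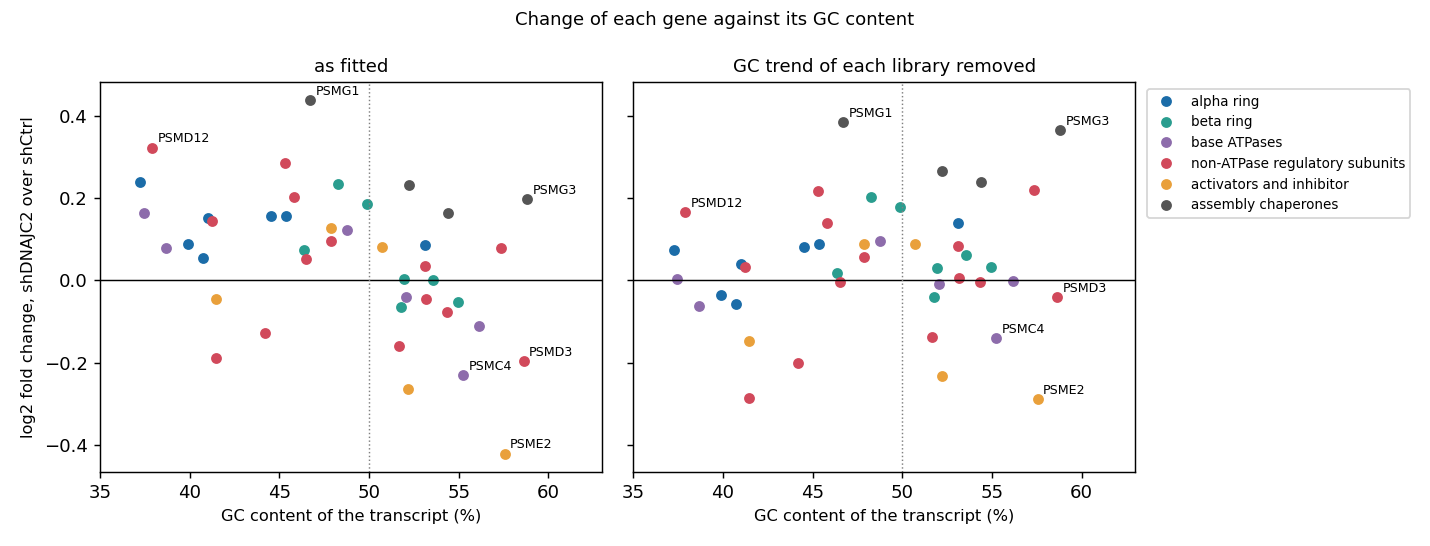
Log2 fold change, shDNAJC2 over shCtrl, of the 43 tested genes against the GC content of the transcript (dotted line at 50%), as fitted on the left and with the GC trend of each library removed on the right. The downward slope on the left is weaker on the right, where PSMG1 (0.38) and PSMG3 (0.36) are the highest and PSME2 (−0.29) the lowest.

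No gene of the lists that work beside the proteasome passed over 6 libraries either. Of 13 other proteasome genes (accessory subunits, chaperones and regulators), 11 were positive with a median of 0.20, and 0 were called by edgeR or DESeq2 (0 at an unadjusted p under 0.05 by edgeR). The negative ones were ADRM1 (−0.07) and PAAF1 (−0.19). PAAF1 alone of the list separated the groups, lower in shDNAJC2, as did 8.43% of all genes. POMP, which matures the beta ring, was at 100, 95.3 and 80.5 CPM in shDNAJC2 1, 2 and 3, against 87.6, 85.2 and 75.2 CPM in shCtrl 1, 2 and 3, which overlap (0.15). UCHL5, a deubiquitinase bound to the regulatory particle, was at 60.4, 52.2 and 43.8 CPM in shDNAJC2 1, 2 and 3, against 40.3, 37.7 and 45.3 CPM in shCtrl 1, 2 and 3 (0.34). ZFAND5, which stimulates the proteasome, had the largest difference of the list (0.65): its levels of 332, 295 and 229 CPM in shDNAJC2 1, 2 and 3 stood above shCtrl 1 and 2 (125 and 135 CPM) and around shCtrl 3 (285 CPM), and without shCtrl 3 it rose by 1.14 on the log2 scale (edgeR adjusted p = 0.0012). TXNL1, a thioredoxin-like protein of the regulatory particle, had a log2 fold change of 0.28. Without shCtrl 3, 5 of the 13 rose and 0 fell (17.8% and 17.0% of all genes), with a median of 0.34.

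In the NFE2L1 pathway, which induces proteasome genes, 8 of 11 genes were positive with a median of 0.21, and 0 passed by edgeR or DESeq2 (0 at an unadjusted p under 0.05 by edgeR). NFE2L1 was at 547, 591 and 542 CPM in shDNAJC2 1, 2 and 3, against 330, 346 and 666 CPM in shCtrl 1, 2 and 3 (0.32). DDI2, the protease that activates NFE2L1, was at 58.0, 58.5 and 50.8 CPM in shDNAJC2 1, 2 and 3, against 30.5, 29.6 and 58.5 CPM in shCtrl 1, 2 and 3 (0.50). For both genes shCtrl 3 was the highest library and the other controls the lowest. Without shCtrl 3, NFE2L1 rose by 0.73 and DDI2 by 0.90 on the log2 scale, and 5 of the 11 rose with 0 falling (17.8% and 17.0% of all genes). The others that rose were MAFF (1.79), MAFG (1.57) and MAFK (1.03), and in each of them shCtrl 3 was the highest library. The median of the list in that fit was 0.32. VCP, the segregase that extracts NFE2L1 from the membrane, was at 532, 572 and 556 CPM in shDNAJC2 1, 2 and 3, against 606, 629 and 612 CPM in shCtrl 1, 2 and 3 (−0.15), and its cofactor UFD1 had a log2 fold change of 0.11. Their groups separated, and neither passed.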

How the data were processed

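The authors deposited a table of raw counts of reads per gene, with 1 column for each of the 6 libraries and no normalization. Reads had been mapped to GRCh38 (hg38), as named in the submitters' processing notes. How they were aligned and counted, with which annotation and whether by strand, is not given in the sources used here, so 20 members whose exons overlap another gene (17 on the other strand) and 12 with named pseudogenes are uncertain. Of 20532 genes, 20279 matched GENCODE 29, including all 45 members; its principal transcripts gave coordinates, length and GC content.

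The groups were compared over 13988 genes with edgeR 4.0.16 in R 4.3.3 (TMM, filterByExpr, two-sided quasi-likelihood F test, Benjamini-Hochberg adjustment, threshold 0.05, 3 libraries each). Group was the only term. Alternatives were other size factors and filters, DESeq2 1.42.0, limma-voom (limma 3.58.1), a replicate block, removal of each library's GC trend, and leaving out each library. Scripts were tested on simulated data. Floors of 3 counts cover counting error only.

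The members and lists were chosen with earlier results of these data known. Per-library values are given for DNAJC2, PSMB5, PSMB6, PSMB7, PSMD14, PSME1 and PSME2, for members whose groups do not overlap and for the largest and smallest change of each class. From each related list the gene fixed by the rule (POMP, NFE2L1, all 3 immunoproteasome genes) and up to 3 with the smallest p are named. Values for PSMA7, PSMC2, PSMD7, PSMD8, PSMD10, PSME4, PSMG2 and PSMG3, and for ADRM1, PAAF1, MAFF, MAFG and MAFK, were added after they were seen.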

Additional observations from a re-analysis of the deposited data

How the results depend on the processing

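Over all 6 libraries no member passed under any setting, and every tested member had at least 224 counts in each library. Leaving out 1 library in turn gave 0 to 2532 genes called higher and 0 to 2413 lower, and 0 to 5 members higher and 0 to 4 lower, with the nonzero counts all from leaving out shCtrl 3. DESeq2 called 6 genes higher and 29 lower, and DNAJC2 among them (−0.726, adjusted p = 0.0364), whose value ran from −0.81 to −0.60 over the leave-one-out fits. The median ran from −0.0031 to 0.0816 for the base ATPases and from −0.0152 to 0.0925 for the non-ATPase genes when 1 library was left out, and from −0.131 (without shCtrl 3) to 0.021 (without shCtrl 1) for the activators and inhibitor. With upper-quartile scaling 5 members separated higher and 1 lower. The share of all genes that separated was not taken at that scale or with library totals alone. Library totals alone, a setting chosen after seeing the data, separated 6 higher and 1 lower and put the summed non-ATPase genes at 97.3% and all members at 98.8% of shCtrl. Same-numbered libraries deviated in opposite directions (r = −0.38, −0.52 and −0.66), so the numbers were not used as pairs. Both shDNAJC2 1 and 2 went with shCtrl 3 (r = 0.37 and 0.59). Such values cannot tell whether the numbers mark libraries handled together, and this was not tested. With the replicate block edgeR called 0 genes (439 at an unadjusted p under 0.05) and 0 members (smallest adjusted p 0.713). Of the 43 members 31 kept their sign in every fit and 12 did not, and for these the size of the change was at most 0.09 over 6 libraries. Removing the GC trend turned PSMA2 (−0.036), PSMA3 (−0.057), PSMB6 (0.033), PSMC2 (−0.061), PSMD13 (0.0060) and PSMD6 (−0.0036), and upper-quartile scaling turned PSMB3 (−0.018) and PSMB5 (−0.019). Leaving out 1 library gave ranges of −0.039 to 0.132 for PSMA3, −0.036 to 0.064 for PSMB3, −0.038 to 0.040 for PSMB5, −0.064 to 0.0051 for PSMC5, −0.075 to 0.020 for PSMD13, −0.016 to 0.107 for PSMD4, −0.012 to 0.117 for PSMD6, −0.023 to 0.297 for PSMD8 and −0.131 to 0.041 for PSME4. The cause of these turns was not tested.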

Other observations

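The genes that load and carry ubiquitin gave a mixed picture. Of 11 listed, 7 were positive with a median log2 fold change of 0.10, and 0 passed by edgeR or DESeq2 over 6 libraries. By edgeR 1 was lower at an unadjusted p under 0.05, as were 7.33% of all genes. UBA1, the main ubiquitin-activating enzyme, was at 295, 325 and 359 CPM in shDNAJC2 1, 2 and 3, against 448, 452 and 363 CPM in shCtrl 1, 2 and 3. The groups did not overlap (log2 fold change −0.37), and without shCtrl 3 it fell by 0.46 on the log2 scale (edgeR adjusted p = 0.015). The shuttle genes RAD23B and UBQLN1, which bring ubiquitinated proteins to the proteasome, had log2 fold changes of 0.23 and 0.20, with overlap between groups.

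The members were spread over the genome, with 8 on chromosome 14 and 7 on chromosome 17 as the largest groups. They took 0.660, 0.661 and 0.648% of all counts in shDNAJC2 1, 2 and 3, against 0.689, 0.693 and 0.611% in shCtrl 1, 2 and 3. The lowest share was that of shCtrl 3, and the groups overlapped.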
